A study of Danio rerio with 6 samples.

Results

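Genes for the extracellular matrix and for the integrins that attach cells to it were followed in regenerating zebrafish ventricles that lack midkine-a, a secreted growth factor encoded by *mdka*. The genes were taken from the study's table of genes ranked by *P*-value, by the start of their symbol (collagens, laminins, elastic fibre genes, periostins, matrilins, proteoglycans, matrix proteases, lysyl oxidases, integrins and related names) with chromosome 7, which carries *mdka*, left out. Only the first 1264 rows of that ranking were used here, and genes further down it were not looked for, so a listed gene is one within those rows. The rule found 21 of the 32520 genes in the count table. Of these, 19 encode matrix proteins, matrix enzymes or integrins, and 2 (*tnni1b* and *tnnt2a*) are troponin genes of the sarcomere that entered only because their symbols begin like those of the tenascins. A further match, *adamtsl5*, was left out because it lies on chromosome 7.

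RNA came from the ventricles of adult zebrafish of the AB strain, collected 7 days after cryoinjury (dpci), a freezing lesion of the ventricle, with the valves at both ends removed. The *mdka* cn105 fish carry a CRISPR/Cas9 allele with a frameshift in exon 3, and *mdka*+/+ fish carry the unmodified gene. Both groups were cryoinjured, and no uninjured heart was included. Each genotype gave 3 libraries, each from a pool of 3 ventricular apexes, so the spread is that between pools and not between single fish.

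The library totals ranged from 18940128 to 25195457 expected counts in *mdka* cn105 and from 19825972 to 23101650 in *mdka*+/+. The targeted gene, *mdka*, had 81.8, 132 and 140 CPM (counts per library total, made comparable with edgeR's TMM factors) in *mdka* cn105 pools and 429, 731 and 1070 CPM in *mdka*+/+ pools, so that 15.8% of the *mdka*+/+ mean was left. Values of single libraries are ordered as pools 2, 3 and 4 of *mdka* cn105 and then pools 1, 2 and 4 of *mdka*+/+, and a log2 fold change is *mdka* cn105 over *mdka*+/+ with its standard error (SE).

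After cryoinjury, the zebrafish ventricle first fills the wound with a matrix rich in fibrillar collagen and later removes it. Fibril-forming collagens (types I and V) carry the tensile load, matricellular proteins such as periostin and Sparc bind them and regulate how they assemble, elastic fibres add recoil, and hyaluronan with versican forms a hydrated loose matrix. Laminins build the basement membrane that surrounds each muscle fibre and vessel, and integrins are the transmembrane receptors that read these proteins.

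The genes were selected on the study's *P*-values for the same contrast between the genotypes. The values of the 21 genes are therefore a description, and no *p*-value is given for them. Counts of genes past a threshold include them, and to that extent rest on the selection. Of the 19 matrix and integrin genes, 16 were higher in *mdka* cn105 ventricles and 3 (*lama2*, *lamb2* and *itga3b*) were lower, and both troponin genes were lower. All 21 passed the filter on low counts. The median log2 fold change of the 16 higher genes was 0.68 (range 0.49 to 1.36), where that of all 17879 genes tested was -0.01. In 20 of the 21 genes the values of the genotypes did not overlap, the exception being *matn4*. Over all genes tested the groups did not overlap in 17.7% (8.75% higher and 8.97% lower in *mdka* cn105), and since the list was drawn by *P*-value nothing can be read from the excess. The 21 genes lie on 16 chromosomes.

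**Figure D1:**
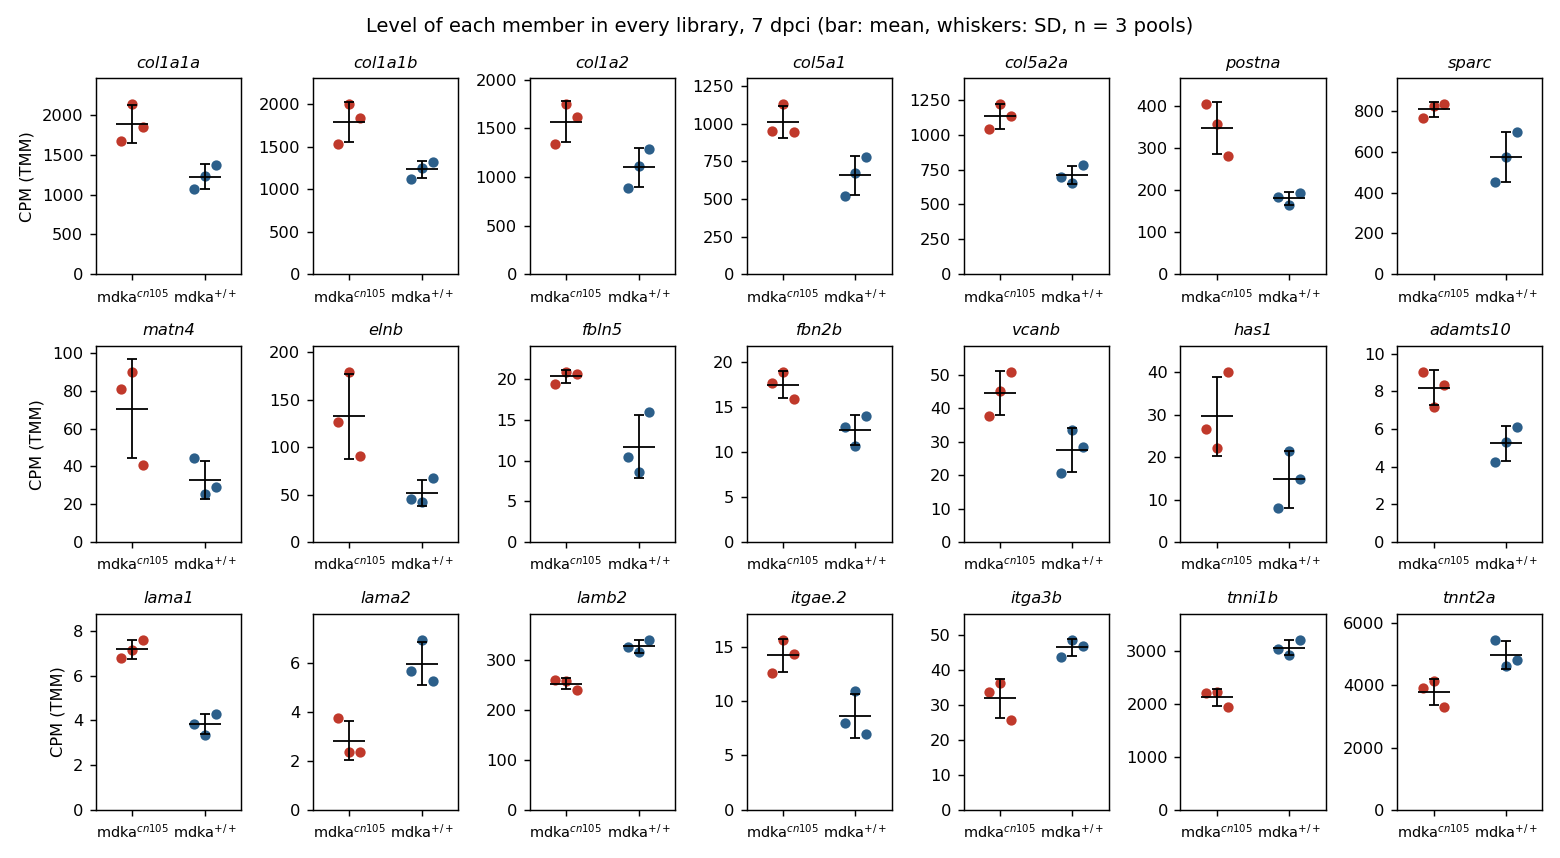
Level of each of the 21 genes in CPM (TMM-scaled, linear axis from 0, each panel with its own scale) in the 3 *mdka* cn105 pools (red) and the 3 *mdka*+/+ pools (blue); the bar is the mean and the whiskers the SD. The genotypes overlap only for *matn4*, where *mdka* cn105 pool 4 (41.0 CPM) lies below *mdka*+/+ pool 1 (44.5 CPM).

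**Figure D2:**
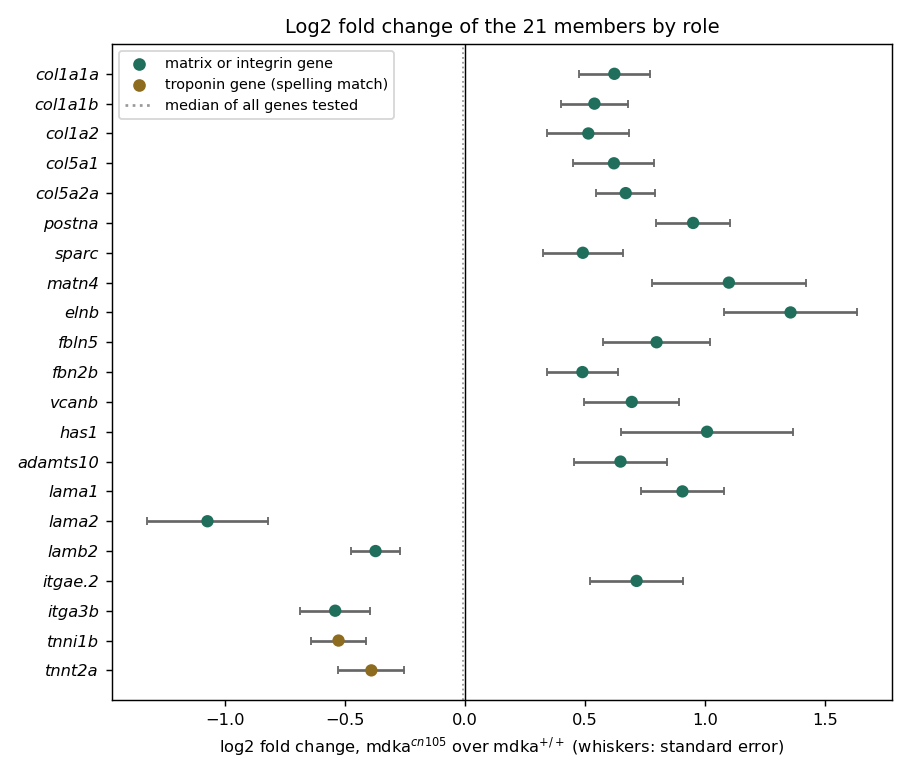
Log2 fold change of *mdka* cn105 over *mdka*+/+ for the same 21 genes, ordered by role, with whiskers of 1 standard error and a dotted line at the median of all genes tested (-0.01). The largest positive value is that of *elnb* (1.36) and the largest negative value that of *lama2* (-1.07).

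Type I collagen is the main fibril of scars and is built from the chains encoded by *col1a1a*, *col1a1b* (2 zebrafish copies of the alpha-1 gene) and *col1a2*. *col1a1a* (chromosome 3) had 1668, 2135 and 1846 CPM in *mdka* cn105 and 1063, 1233 and 1375 CPM in *mdka*+/+ pools. *col1a1b* (chromosome 12) had 1537, 2006 and 1840 CPM in *mdka* cn105 and 1128, 1254 and 1323 CPM in *mdka*+/+ pools. *col1a2* (chromosome 19) had 1343, 1752 and 1614 CPM in *mdka* cn105 and 889.5, 1119 and 1291 CPM in *mdka*+/+ pools. For each of the 3 genes the lowest *mdka* cn105 pool was above the highest *mdka*+/+ pool, for *col1a2* by a factor of only 1.04. The log2 fold changes were 0.62 (SE 0.15), 0.54 (SE 0.14) and 0.51 (SE 0.17). Without TMM scaling, the 3 genes together took 0.463%, 0.629% and 0.562% of the counts of the *mdka* cn105 libraries. In the *mdka*+/+ libraries they took 0.287%, 0.351% and 0.380%. With TMM scaling they summed to 4548, 5894 and 5300 CPM in *mdka* cn105 and 3081, 3606 and 3989 CPM in *mdka*+/+ pools, a narrower gap.

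The proportion of the type I collagen chains was read within each library, where overlap of so few pools does not show equal proportions. The summed counts of both alpha-1 genes were 2.39, 2.36 and 2.28 times those of *col1a2* in *mdka* cn105 pools, and 2.46, 2.22 and 2.09 times in *mdka*+/+ pools. These ranges overlapped, as did those of *col1a1a* to *col1a1b*, with 1.08, 1.06 and 1.0 in *mdka* cn105 and 0.942, 0.983 and 1.04 in *mdka*+/+ pools. Such a ratio does not depend on the scaling of libraries, and as a ratio of counts it is no measure of how many molecules of each chain there were.

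Type V collagen is a minor collagen that starts type I fibrils and limits their thickness. *col5a1* (chromosome 21) had 954.7, 1132 and 948.5 CPM in *mdka* cn105 and 520.1, 674.5 and 780.3 CPM in *mdka*+/+ pools, a log2 fold change of 0.62 (SE 0.17). *col5a2a* (chromosome 9) had 1041, 1220 and 1131 CPM in *mdka* cn105 and 697.6, 655.7 and 779.9 CPM in *mdka*+/+ pools, a log2 fold change of 0.67 (SE 0.12). The *mdka* cn105 pools were again the 3 highest for both genes. The ratio of *col5a1* to *col5a2a* was 0.917, 0.928 and 0.838 in *mdka* cn105 pools, inside the spread of the *mdka*+/+ pools (0.746, 1.03 and 1.0).

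The other collagens of the count table were counted as well, whether listed or not. Of 11 fibrillar collagen genes tested, 5 passed the unadjusted threshold of 0.05 (edgeR, quasi-likelihood). These were the 5 listed genes, selected on this contrast. Over all genes tested, 12.1% passed that threshold (5.64% higher and 6.42% lower in *mdka* cn105). Adjusted *p*-values are given beside the other genes and are edgeR's, corrected by Benjamini and Hochberg over all genes tested. None of the 6 other fibrillar genes passed, and their median log2 fold change was 0.14. *col5a3a*, a further type V chain, had a log2 fold change of 0.52 (SE 0.31, adjusted *p* = 0.59), with 6.78, 9.38 and 8.47 CPM in *mdka* cn105 and 3.25, 6.12 and 7.85 CPM in *mdka*+/+ pools. *col11a1b*, which encodes a chain related to type V, was at 105, 186 and 136 CPM in *mdka* cn105 and 97.6, 126 and 191 CPM in *mdka*+/+ pools, a log2 fold change of 0.04 (adjusted *p* = 0.98).

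Among the 25 collagen genes outside the fibrillar group, 1 passed the threshold, beside 12.1% of all genes tested. It was *COL9A2*, a cartilage collagen gene that stayed below 1 CPM in every library (log2 fold change 1.67, SE 0.54, adjusted *p* = 0.284). The *p*-values of the 4 collagen VI genes tested, which form beaded filaments around cells, were all above the threshold, with a median log2 fold change of 0.17. For *col6a1* the pools stood at 472.5, 543.5 and 528.2 CPM in *mdka* cn105 and 287.5, 463.0 and 550.1 CPM in *mdka*+/+, so that the groups overlapped. *COL4A1* and *COL4A2*, the collagen IV chains of basement membranes, had log2 fold changes of 0.12 (adjusted *p* = 0.887) and 0.02 (adjusted *p* = 0.972). The pair of genes for collagen XII, a fibril-associated collagen, had 0.26 and 0.20 (adjusted *p* = 0.716 and adjusted *p* = 0.772).

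Enzymes that crosslink collagen and elastin are the lysyl oxidases. Of 9 such genes tested, 1 passed the threshold, *LOX*, with 30.3, 33.4 and 21.4 CPM in *mdka* cn105 and 19.4, 15.03 and 23.8 CPM in *mdka*+/+ pools (log2 fold change 0.55, SE 0.22, adjusted *p* = 0.374). Its groups overlapped through *mdka* cn105 pool 4. The median log2 fold change of the lysyl oxidase genes was 0.25, with 7 positive and 2 negative values. Of all genes tested, 12.1% passed the threshold.

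Fibroblasts and epicardial cells are the main makers of fibrillar collagen in the injured heart. In bulk tissue, fewer or more cells of a type and less or more RNA per cell cannot be told apart. Markers of the cell types were therefore read beside the genes above. All marker lists were chosen with earlier results of these data known, so their counts are a description. Of 12 listed markers of fibroblasts and epicardium 11 could be matched, and none of the 11 passed the unadjusted threshold, with a median log2 fold change of -0.00. Their summed level was 5924, 6370 and 7945 CPM in *mdka* cn105 and 5461, 5889 and 7252 CPM in *mdka*+/+ pools, and these ranges overlapped. Most of that sum came from the *FN1* genes and *POSTN*, which are matrix genes themselves (3536, 800 and 997 CPM in *mdka* cn105 pool 2). It is therefore no measure of how many such cells the pools held. *TCF21*, which defines epicardium-derived fibroblasts, had 32.9, 29.5 and 37.7 CPM in *mdka* cn105 and 24.5, 38.4 and 36.2 CPM in *mdka*+/+ pools. Expression of *PDGFRA*, a receptor of the same cells, overlapped as well, at 66.6, 67.9 and 58.0 CPM in *mdka* cn105 and 47.4, 49.4 and 76.7 CPM in *mdka*+/+ pools. Of all genes tested 12.1% passed, and a p above the threshold does not show that these markers were equal.

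Matricellular proteins sit among the fibrils without bearing load. *postna*, a zebrafish periostin gene (chromosome 10), had 405.8, 358.1 and 282.9 CPM in *mdka* cn105 and 183.1, 164.1 and 194.7 CPM in *mdka*+/+ pools, a log2 fold change of 0.95 (SE 0.16). Its lowest *mdka* cn105 pool was 1.45 times its highest *mdka*+/+ pool. The other periostin gene, listed as *POSTN* (ENSDARG00000104267), had 997.4, 1519 and 1388 CPM in *mdka* cn105 and 537.7, 934.3 and 1173 CPM in *mdka*+/+ pools. Here *mdka*+/+ pool 4 lay above *mdka* cn105 pool 2, and the log2 fold change of 0.56 (SE 0.29) did not pass (adjusted *p* = 0.507). It was 0.82 without *mdka*+/+ pool 4, which passed the unadjusted threshold, and 0.30 without *mdka*+/+ pool 1.

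*sparc* (chromosome 14), which encodes a collagen-binding protein needed for fibril assembly, had 764, 826 and 835 CPM in *mdka* cn105 and 451.5, 576.9 and 697.6 CPM in *mdka*+/+ pools, a log2 fold change of 0.49 (SE 0.17). Its count was 0.569, 0.471 and 0.517 times that of *col1a2* in *mdka* cn105 pools and 0.508, 0.516 and 0.540 times in *mdka*+/+ pools. These *sparc* to *col1a2* ratios overlapped between the genotypes. The ratio of *postna* to *col1a2* spanned 0.175 to 0.302 in *mdka* cn105 pools and 0.147 to 0.206 in *mdka*+/+ pools, which overlapped.

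*matn4* (chromosome 6) encodes matrilin-4, an adaptor that links other matrix proteins into networks. It had 80.8, 90.1 and 41.0 CPM in *mdka* cn105 and 44.5, 25.5 and 28.9 CPM in *mdka*+/+ pools, a log2 fold change of 1.1 (SE 0.32). Pool 4 of *mdka* cn105 was among the *mdka*+/+ values. *MATN1*, a cartilage matrilin gene outside the rows used, stayed below 1.5 CPM in every library and had a log2 fold change of 1.31 (SE 0.45, adjusted *p* = 0.316). Of the 9 matricellular and matrilin genes tested, 4 passed the unadjusted threshold as higher. These were the 3 listed genes, selected on this contrast, and *MATN1*. Lower was 1, *tnn*, a tenascin gene below 1.5 CPM in every library (-1.31, SE 0.56, adjusted *p* = 0.411). Over all genes tested, 5.64% passed as higher and 6.42% as lower. Of 6 listed cartilage markers 4 were matched, and their summed level was 16.3, 10.4 and 11.5 CPM in *mdka* cn105 and 7.44, 9.80 and 6.75 CPM in *mdka*+/+ pools. Both of the 2 that could be tested, *MATN1* and *acana*, passed the unadjusted threshold as higher. The cartilage list was chosen with earlier results of these data known. The part of such cells in the *matn4* values was not tested.

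Elastic fibres consist of elastin on a scaffold of fibrillin microfibrils, joined by fibulin-5. *elnb*, an elastin gene best known from the zebrafish outflow tract (chromosome 21), had 126.8, 179.4 and 90.7 CPM in *mdka* cn105 and 45.8, 42.0 and 67.3 CPM in *mdka*+/+ pools. This was the highest log2 fold change among the 21 genes, at 1.36 (SE 0.28), with no overlap although the *mdka* cn105 pools alone had a coefficient of variation of 33.7%. *fbln5*, the fibulin-5 gene (chromosome 13), had 19.4, 20.9 and 20.7 CPM in *mdka* cn105 and 10.4, 8.66 and 16.0 CPM in *mdka*+/+ pools, a log2 fold change of 0.80 (SE 0.22). For *fbln5* the *mdka* cn105 pools were nearly equal and the spread lay in *mdka*+/+. *fbn2b*, a fibrillin gene (chromosome 22), had 17.7, 18.9 and 15.8 CPM in *mdka* cn105 and 12.8, 10.6 and 13.97 CPM in *mdka*+/+ pools, a log2 fold change of 0.49 (SE 0.15).

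Of the 10 elastic fibre genes tested, 5 passed the unadjusted threshold as higher and none as lower, beside 5.64% and 6.42% of all genes tested. These 5 were the 3 listed genes, chosen by *P*-value, *EMILIN2* and *LTBP1*. *EMILIN2*, whose product associates with elastic fibres, had a log2 fold change of 0.32 (SE 0.12, adjusted *p* = 0.332), with 64.8, 56.0 and 58.9 CPM in *mdka* cn105 and 48.7, 51.9 and 43.0 CPM in *mdka*+/+ pools. *LTBP1*, whose product binds latent Tgf-beta to microfibrils, had 0.44 (SE 0.19, adjusted *p* = 0.413) and overlapping groups. The remaining genes included *FBLN2* at -0.55 (adjusted *p* = 0.614) and *emilin1a* at -0.36 (adjusted *p* = 0.455). The ratio of *elnb* to *fbln5* was 6.53, 8.59 and 4.39 in *mdka* cn105 pools, of which pool 4 lay within the *mdka*+/+ pools (4.40, 4.85 and 4.20).

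Smooth muscle of the vessels and of the bulbus arteriosus, the outflow chamber, is a known source of elastin. Of 12 listed markers 7 were matched and 6 tested, and 2 passed the unadjusted threshold, both higher: *mylka* (1.02, SE 0.20, adjusted *p* = 0.162) and *lmod1b* (1.0, SE 0.12, adjusted *p* = 0.0735), which encode a myosin kinase and an actin nucleator of smooth muscle. Of the 6 tested, 3 had positive and 3 negative log2 fold changes, with a median of 0.015. The negative ones were *smtnb* (-0.58), *FBLN1* (-0.42) and the *CNN1* gene that could be tested (-0.16), none of which passed. The 7 matched genes summed to 537, 457 and 382 CPM in *mdka* cn105 and 380, 417 and 444 CPM in *mdka*+/+ pools, and these ranges overlapped. *acta2*, the smooth muscle actin gene, had 302, 249 and 218 CPM in *mdka* cn105 and 196, 251 and 227 CPM in *mdka*+/+ pools, and 1 of the 2 genes named *CNN1* was at 0 in every library. Of all genes tested, 5.64% passed the threshold as higher and 6.42% as lower. The part of smooth muscle in the values of *elnb* was not tested.

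*vcanb* (chromosome 10) encodes versican, a large proteoglycan that binds hyaluronan, and *has1* (chromosome 16) encodes a synthase of hyaluronan. *vcanb* had 37.5, 45.3 and 50.9 CPM in *mdka* cn105 and 20.5, 33.6 and 28.5 CPM in *mdka*+/+ pools, a log2 fold change of 0.69 (SE 0.20). *has1* had 26.7, 22.2 and 40.1 CPM in *mdka* cn105 and 7.99, 21.5 and 14.8 CPM in *mdka*+/+ pools, a log2 fold change of 1.01 (SE 0.36). The *has1* groups lay almost edge to edge, since the lowest *mdka* cn105 pool was 1.03 times the highest *mdka*+/+ pool. The *vcanb* to *has1* ratio was 1.41, 2.04 and 1.27 in *mdka* cn105 and 2.57, 1.57 and 1.93 in *mdka*+/+ pools, with overlap.

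Of the 8 proteoglycan and hyaluronan synthase genes tested, 3 passed the unadjusted threshold as higher and none as lower, beside 5.64% and 6.42% of all genes tested. They were *vcanb* and *has1*, listed for their *P*-value in this contrast, and *DCN*. *HAS2*, the synthase gene of the endocardial cushions, had 9.32, 11.3 and 10.8 CPM in *mdka* cn105 and 19.4, 8.92 and 11.7 CPM in *mdka*+/+ pools (log2 fold change -0.35, adjusted *p* = 0.702). The second versican gene, *vcana*, was low, at 2.92, 2.69 and 2.34 CPM in *mdka* cn105 and 0.837, 1.76 and 2.53 CPM in *mdka*+/+ pools (0.64, adjusted *p* = 0.596). *DCN*, the gene for decorin, a small proteoglycan that coats collagen fibrils, passed the unadjusted threshold with 644.7, 689.3 and 673.4 CPM in *mdka* cn105 and 406.8, 371.0 and 639.8 CPM in *mdka*+/+ pools (0.50, SE 0.21, adjusted *p* = 0.385). Its groups did not overlap, but *mdka*+/+ pool 4 came close to the *mdka* cn105 pools. Of 7 markers of valve and endocardial cushion 6 were matched, of which 1 (*twist1b*, 1.19, adjusted *p* = 0.128) passed. Their summed level overlapped, at 250, 249 and 304 CPM in *mdka* cn105 and 255, 257 and 168 CPM in *mdka*+/+ pools, although the valves had been cut away.

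*adamts10* (chromosome 8), the only protease gene among the 21, encodes a secreted metalloprotease that binds fibrillin. It had 9.05, 7.20 and 8.37 CPM in *mdka* cn105 and 4.28, 5.34 and 6.11 CPM in *mdka*+/+ pools, a log2 fold change of 0.65 (SE 0.19). Across the 53 genes tested for matrix proteases and their inhibitors, *adamts10*, selected on this contrast, was the only one past the unadjusted threshold as higher. *adamtsl5* and *adam19b* passed as lower. Of all genes tested, 5.64% passed as higher and 6.42% as lower. *adamtsl5*, the gene left out for lying on chromosome 7, had 9.51, 15.5 and 9.36 CPM in *mdka* cn105 and 15.8, 17.1 and 21.3 CPM in *mdka*+/+ pools (-0.65, SE 0.23). *adam19b* had a log2 fold change of -0.88 (adjusted *p* = 0.4).

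The matrix metalloproteinases are the enzymes that digest collagen, and the TIMP proteins inhibit them. None of the 15 metalloproteinase genes and none of the 5 TIMP genes tested passed the unadjusted threshold, beside 12.1% of all genes tested. In groups this small, that does not show that these genes were unchanged. *MMP2*, a gelatinase gene, had a log2 fold change of 0.20, and *MMP9*, the other gelatinase gene, had 40.2, 40.0 and 40.1 CPM in *mdka* cn105 and 90.6, 126 and 12.8 CPM in *mdka*+/+ pools (-0.93, SE 0.64, adjusted *p* = 0.657). Its *mdka*+/+ pools lay on both sides of the *mdka* cn105 pools, and the log2 fold change was -0.37 without *mdka*+/+ pool 2 and -1.43, past the unadjusted threshold, without *mdka*+/+ pool 4. The 2 genes named *MMP14*, for a membrane-bound collagenase, had -0.06 and -0.10. The median of the whole group of proteases and inhibitors was -0.06, beside -0.01 for all genes tested.

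**Figure D3:**
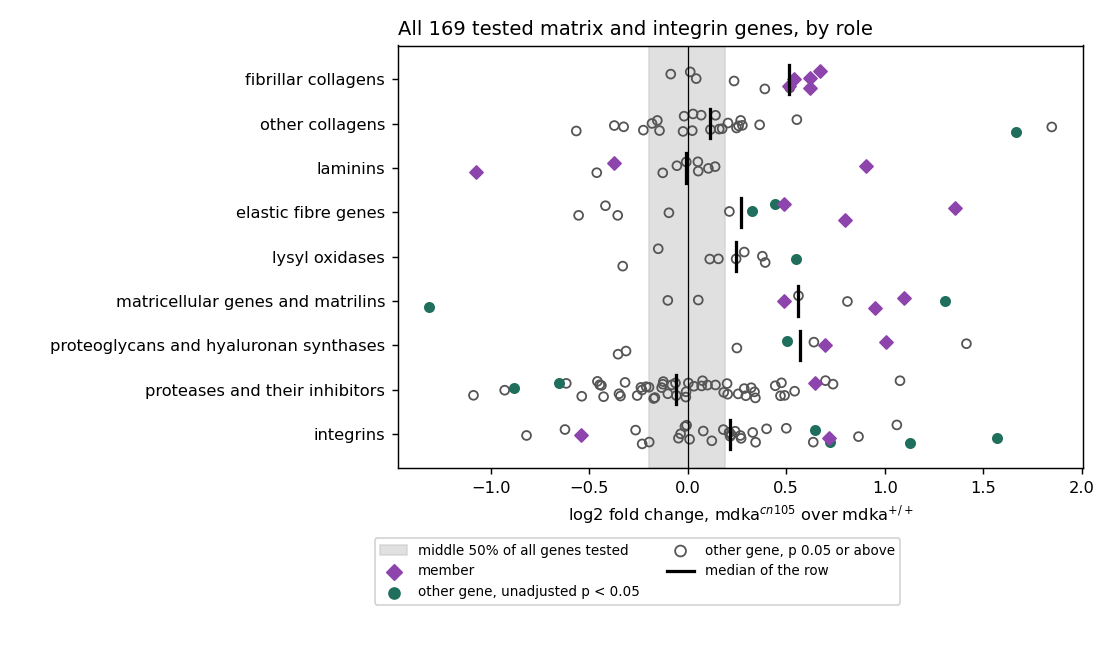
Log2 fold change (*mdka* cn105 over *mdka*+/+, horizontal axis) of all 169 matrix and integrin genes tested, in rows by role. Purple diamonds are the 19 listed genes, filled green circles other genes with an unadjusted *p* under 0.05, open circles the rest, black bars the row medians and the grey band the middle 50% of all genes tested; row medians include the listed genes and run from -0.06 for proteases to 0.57 for proteoglycans and hyaluronan synthases.

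Basement membrane genes ran in both directions. *lama1* (chromosome 24), the alpha-1 chain of the laminins of early embryonic membranes, had 6.78, 7.15 and 7.62 CPM in *mdka* cn105 and 3.86, 3.37 and 4.27 CPM in *mdka*+/+ pools, a log2 fold change of 0.91 (SE 0.17). *lama2* (chromosome 20), the alpha-2 chain that anchors muscle fibres and is lost in a congenital muscular dystrophy, had 3.74, 2.37 and 2.34 CPM in *mdka* cn105 and 5.67, 6.95 and 5.27 CPM in *mdka*+/+ pools, a log2 fold change of -1.07 (SE 0.25). *lamb2* (chromosome 23), a beta chain of muscle and vessel membranes, had 260, 258 and 240 CPM in *mdka* cn105 and 326, 315 and 341 CPM in *mdka*+/+ pools, a log2 fold change of -0.37 (SE 0.10). Neither genotype overlapped the other for any of the 3. The first pair was sparsely counted, down to 47 for *lama2* in *mdka* cn105 pool 4 and 65 for *lama1* in *mdka*+/+ pool 2.

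The opposite shifts of both alpha chains were widest as a ratio within the library. The count of *lama1* was 1.81, 3.02 and 3.26 times that of *lama2* in *mdka* cn105 pools and 0.680, 0.485 and 0.810 times in *mdka*+/+ pools. Every *mdka* cn105 pool held more *lama1* than *lama2* counts and every *mdka*+/+ pool fewer, a difference of 2.02 on the log2 scale or 4.05-fold between geometric means. *lama2* was also lower relative to *lamb2*, at 0.0144, 0.00917 and 0.00974 in *mdka* cn105 and 0.0174, 0.0220 and 0.0155 in *mdka*+/+ pools. The genes in these ratios were chosen for their difference, so no test was applied.

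**Figure D4:**
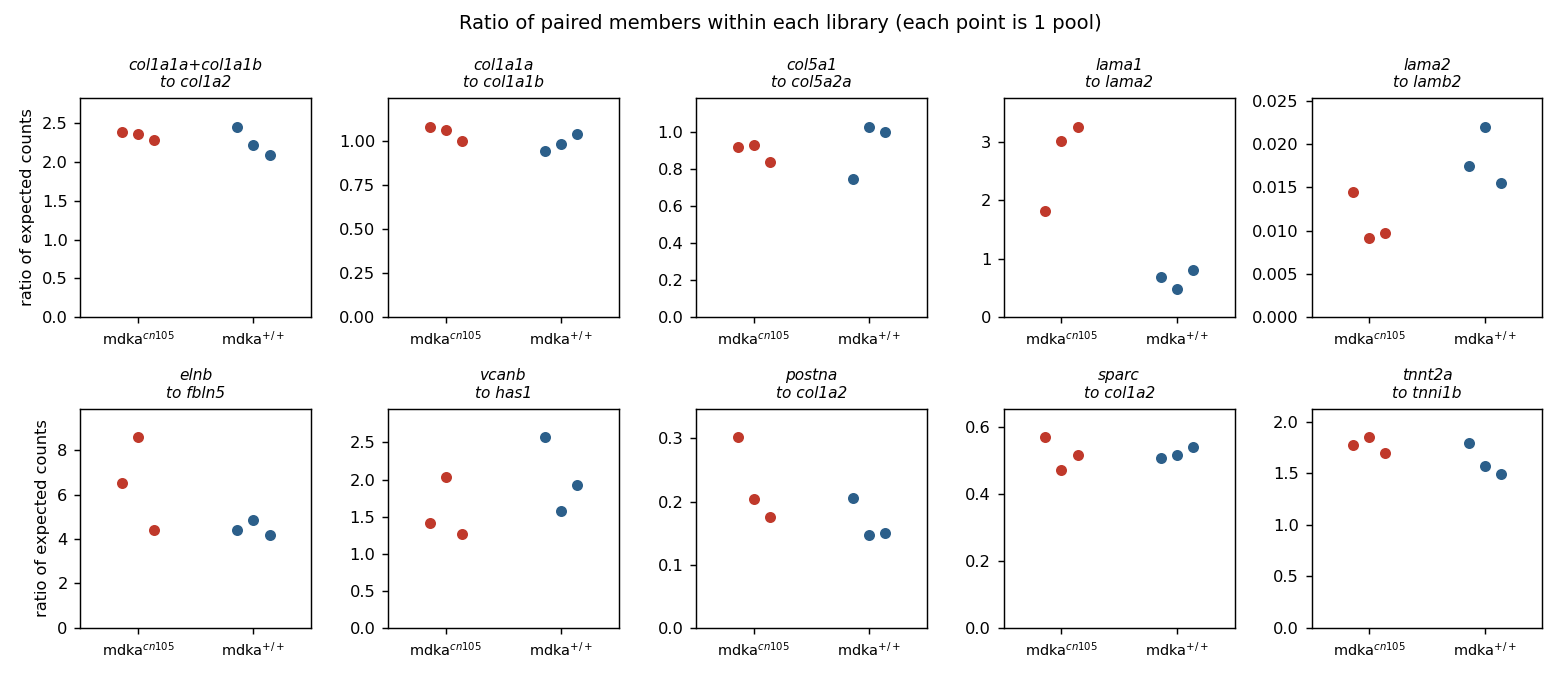
Ratio of the expected counts of paired genes within each library (linear axes from 0), with *mdka* cn105 pools in red and *mdka*+/+ pools in blue. The groups are apart for *lama1* to *lama2* (1.81 to 3.26 and 0.485 to 0.810) and for *lama2* to *lamb2*, and overlap for the other 8 pairs, those of the collagen chains included.

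The 8 other laminin genes tested did not pass the threshold, which 12.1% of all genes tested passed. *lama4*, the alpha chain of vessel membranes, had 170, 199 and 203 CPM in *mdka* cn105 and 172, 199 and 204 CPM in *mdka*+/+ pools (log2 fold change -0.01, adjusted *p* = 0.991). *LAMA5* had 0.05 (adjusted *p* = 0.95), the 2 genes named *LAMB1* had 0.10 and -0.05, and *lamc1*, the gamma chain shared by most laminins, had -0.13 (adjusted *p* = 0.737). Over the 11 laminin genes the median was -0.01.

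Integrins are dimers of an alpha and a beta chain. *itgae.2* (chromosome 15), one of the zebrafish alpha-E genes, whose mammalian counterpart pairs with beta-7 on lymphocytes of epithelia, had 12.6, 15.7 and 14.3 CPM in *mdka* cn105 and 7.99, 10.9 and 7.01 CPM in *mdka*+/+ pools, a log2 fold change of 0.71 (SE 0.20). *itga3b* (chromosome 12), a laminin-binding alpha-3 gene, had 33.9, 36.3 and 25.8 CPM in *mdka* cn105 and 43.9, 48.8 and 47.0 CPM in *mdka*+/+ pools, a log2 fold change of -0.54 (SE 0.15). Both kept the genotypes apart. *itgae.1*, the neighbour of *itgae.2* in name, had 49.8, 69.4 and 52.7 CPM in *mdka* cn105 and 11.3, 33.1 and 50.01 CPM in *mdka*+/+ pools, and did not pass (0.87, SE 0.45, adjusted *p* = 0.517). RSEM divides reads that fit similar copies, so the split between such genes is uncertain. *itgb7*, for the beta chain that pairs with alpha-E, had 0.24 (adjusted *p* = 0.761).

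Of 33 integrin genes tested, 5 passed the unadjusted threshold as higher and 1, *itga3b*, as lower, with a median log2 fold change of 0.22. These counts include *itgae.2* and *itga3b*, which were selected on this contrast. Over all genes tested, 5.64% passed as higher and 6.42% as lower. Of the 4 higher genes beyond *itgae.2*, *itga2b* and *ITGB3* encode the chains of the fibrinogen receptor of thrombocytes. *itga2b* had 50.9, 27.4 and 37.4 CPM in *mdka* cn105 and 18.6, 21.9 and 29.7 CPM in *mdka*+/+ pools (0.72, SE 0.26, adjusted *p* = 0.322). *ITGB3* (ENSDARG00000045070) had 22.9, 13.4 and 17.0 CPM in *mdka* cn105 and 10.8, 14.6 and 8.64 CPM in *mdka*+/+ pools (0.64, SE 0.25, adjusted *p* = 0.369). The groups overlapped for both. *itga2.3* and *itga2.1*, of the collagen-binding alpha-2 kind, had 1.13 (adjusted *p* = 0.334) and 1.57 (adjusted *p* = 0.342), *itga2.1* staying below 1 CPM in every library. The widely used receptor genes *ITGAV* (0.21, adjusted *p* = 0.66) and *ITGA5* (-0.20, adjusted *p* = 0.849) did not pass.

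Markers of blood cells were read beside these integrins. All 6 matched markers of erythroid cells and thrombocytes (of 8 listed, *itga2b* among them) passed the unadjusted threshold as higher, with a median log2 fold change of 1.12. Their summed level was 7507, 4949 and 10800 CPM in *mdka* cn105 and 3124, 5227 and 4337 CPM in *mdka*+/+ pools, so that *mdka* cn105 pool 3 lay among the *mdka*+/+ pools. Most of the sum was *hbaa1* (3591 CPM in that pool). There *hbaa2*, *hbba2*, *alas2* and *thbs1b* lay above every *mdka*+/+ pool, and *hbaa1* and *itga2b* did not. *thbs1b* had 726, 468 and 512 CPM in *mdka* cn105 and 180, 226 and 189 CPM in *mdka*+/+ pools (1.52, SE 0.19, adjusted *p* = 0.0771). Of the 7 matched macrophage markers (of 8 listed), 5 passed, all higher, with sums of 1325, 1681 and 1560 CPM in *mdka* cn105 and 976, 1007 and 1065 CPM in *mdka*+/+ pools. *LCP1* and *SPI1* did not pass (adjusted *p* = 0.909 and adjusted *p* = 0.844), and the smallest adjusted *p* of these markers was that of *csf1ra* (0.164). Of the 3 matched neutrophil markers (of 5 listed), 2 passed as lower, *lyz* at -2.37 (adjusted *p* = 0.237) and *npsn* at -1.35 (adjusted *p* = 0.341). Of 10 endothelial markers, *tie1* and *vwf* passed as higher and *pecam1* as lower, with sums of 2188, 2058 and 1755 CPM in *mdka* cn105 and 1812, 1522 and 1502 CPM in *mdka*+/+ pools. Beside these counts, 5.64% of all genes tested passed as higher and 6.42% as lower. The lists were chosen with earlier results of these data known, so the counts are only a description. The part of the blood and endothelial cells in the integrin values was not tested.

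The troponin genes are reported apart because they encode parts of the thin filament of cardiac muscle and no matrix protein. *tnni1b*, for a troponin I (chromosome 6), had 2207, 2230 and 1941 CPM in *mdka* cn105 and 3043, 2933 and 3218 CPM in *mdka*+/+ pools, a log2 fold change of -0.53 (SE 0.12). *tnnt2a*, for cardiac troponin T (chromosome 23), had 3906, 4135 and 3300 CPM in *mdka* cn105 and 5461, 4610 and 4801 CPM in *mdka*+/+ pools, a log2 fold change of -0.39 (SE 0.14). The 3 *mdka*+/+ pools were the highest for both, and the ratio of *tnnt2a* to *tnni1b* overlapped between genotypes (1.77, 1.85 and 1.70 in *mdka* cn105 and 1.79, 1.57 and 1.49 in *mdka*+/+). Of the 22 tested genes that the prefixes caught by spelling alone, 4 passed the unadjusted threshold, all lower, beside 6.42% of all genes tested. They include *tnni1b* and *tnnt2a*, which were selected on this contrast. The others were *tnni1d* (-1.8, adjusted *p* = 0.362) and *TNNI3K* (-0.46, adjusted *p* = 0.367).

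Beside 6.42% of all genes tested, 5 of the 9 matched cardiomyocyte markers (of 12 listed) passed the unadjusted threshold as lower. All 9 had negative log2 fold changes, with a median of -0.40. This list, too, was chosen with earlier results of these data known. Their summed level was 44440, 40730 and 35930 CPM in *mdka* cn105 and 55610, 50190 and 52150 CPM in *mdka*+/+ pools, and the groups did not overlap. Pool 4 was the lowest of the *mdka* cn105 pools in this sum, as it was for *tnni1b* and *tnnt2a*. In plain shares of the library, without TMM scaling, a lower share of cardiomyocyte transcripts raises that of others. The CPM values given here are TMM-scaled, with a single factor for all genes of a library. They therefore remain relative to the other RNA of the pool. The part of the lower cardiomyocyte level in the matrix values was not tested.

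**Figure D5:**
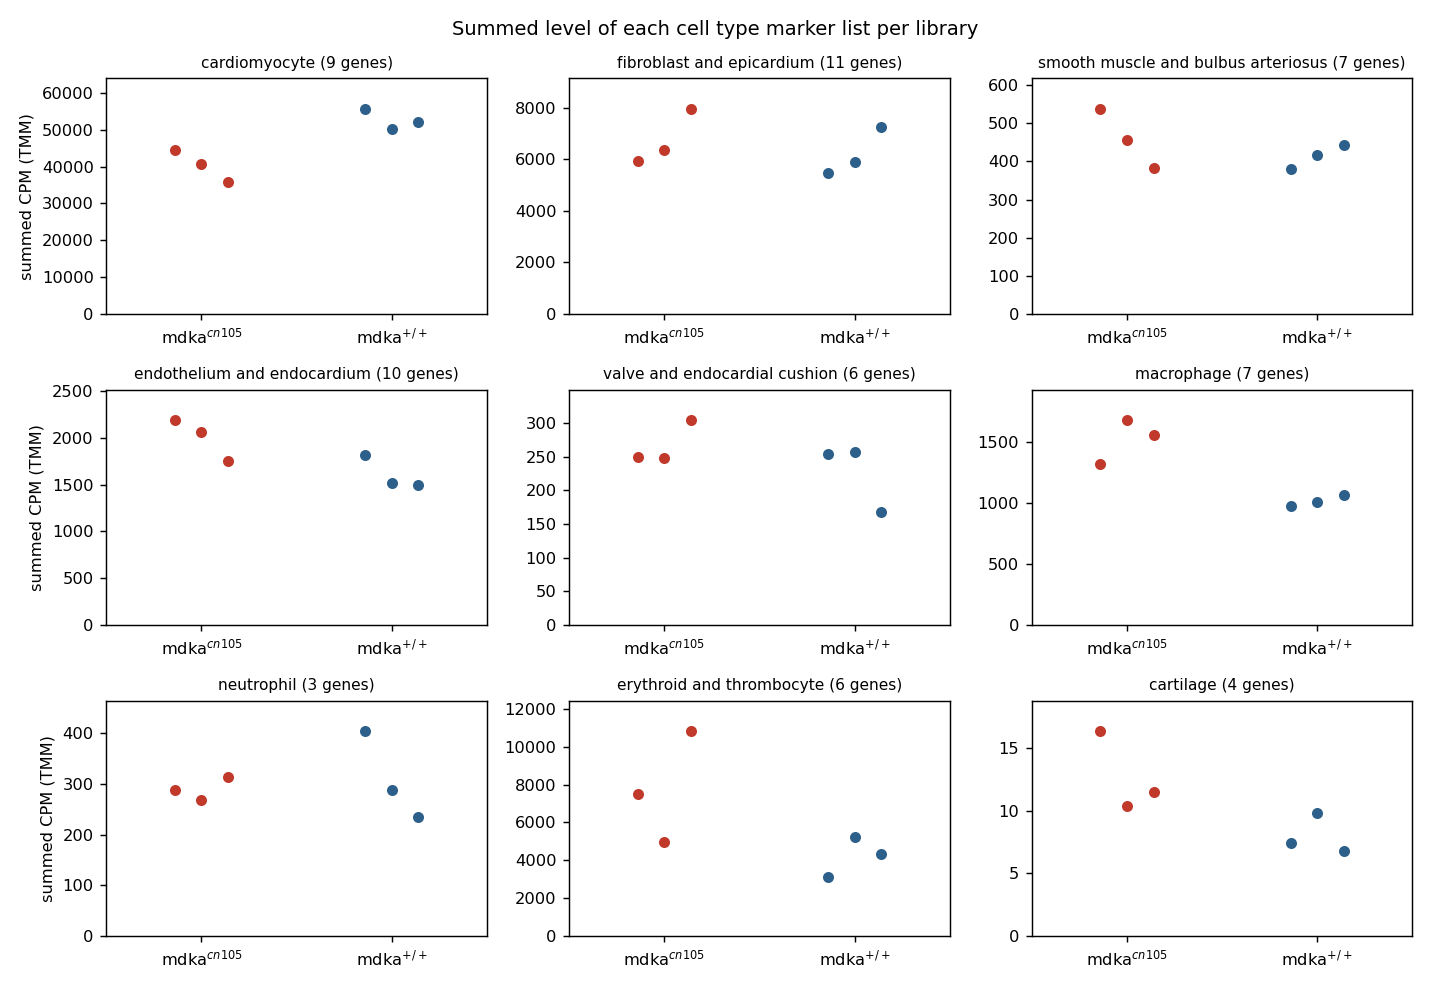
Summed level (CPM, TMM-scaled, linear axis from 0) of each cell type marker list in the *mdka* cn105 pools (red) and *mdka*+/+ pools (blue), with the number of matched genes in brackets. Cardiomyocyte sums are lower in all *mdka* cn105 pools (35930 to 44440 and 50190 to 55610 CPM) and macrophage sums higher (1325 to 1681 and 976 to 1065 CPM). Fibroblast and epicardium sums, made up mostly of *FN1* and *POSTN*, overlap.

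The complete symbol list was also counted, without leaving out chromosome 7 and including genes outside the rows used of the study's ranking. In it, 169 of 221 matrix and integrin genes could be tested. Of these, 26 (15.4%) were past the unadjusted threshold as higher and 6 (3.55%) as lower, beside 5.64% and 6.42% of all genes tested. Scaled by library size alone, 37 (21.9%) were higher and 3 (1.78%) lower, beside 11.6% and 2.80% of all genes. Each of the 13 unlisted genes past the threshold lost that call under at least 1 other setting or left-out library. The listed genes, selected on this contrast, made up 16 of the 26 and 3 of the 6. Without them 10 of 150 (6.67%) were higher and 3 (2.0%) lower, a count from which genes that pass had been removed. The 3 lower include *adamtsl5* on chromosome 7, which was itself within the ranked rows. With *mdka*+/+ pool 1 left out, the lower share of the complete list was above that of all genes (7.47% beside 6.65%). The median log2 fold change of the 169 genes was 0.14, with 104 positive and 65 negative values, and the groups did not overlap for 31 of them (18.3%), close to the 17.7% of all genes. With a mean of at least 1 CPM required, 23 of 156 (14.7%) were higher and 5 (3.21%) lower, beside 5.80% and 6.98% of all genes at that level. After Benjamini-Hochberg adjustment in edgeR none of the 169 stayed below 0.05, and over all genes tested 1 did (0.00559%). With DESeq2, 11 of the 169 did, beside 445 of all 17879 genes tested. The 169 include the listed genes, and how many of the 11 were listed was not counted. The smallest adjusted *p* outside the listed genes was that of *COL9A2* (0.284, edgeR, Benjamini-Hochberg).

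The pools of 1 genotype also differed among themselves in a shared way. Of the 16 higher genes, 10 had their highest *mdka* cn105 value in pool 3, and 12 had their highest *mdka*+/+ value in pool 4. The lowest *mdka*+/+ value was in pool 1 for 8 and in pool 2 for 7. How often these pools were highest or lowest over all genes was not counted, so the pattern cannot be called particular to the listed genes. The 19 matrix and integrin genes together took 0.850%, 1.08% and 0.960% of the counts, without TMM scaling, in *mdka* cn105 and 0.509%, 0.604% and 0.668% in *mdka*+/+ libraries. *mdka*+/+ pool 4, nearest to the mutants in this share, had also the highest *mdka* level of all libraries.

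The listed genes that came last in the study's ranking were *tnnt2a* and *has1*. The ranking was not the order of the fit used here, in which the first matrix genes outside the list, *COL9A2* and *MATN1*, stood ahead of some listed ones. Their mean levels were 0.762 and 1.05 CPM in *mdka* cn105 and 0.240 and 0.421 CPM in *mdka*+/+ pools.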

How the data were processed

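The authors made stranded polyA libraries (NEBNext Ultra II Directional kit), sequenced single reads, demultiplexed them with bcl2fastq 2.20.0.422, trimmed with cutadapt, mapped to the Ensembl transcriptome of GRCz11 and estimated expression with RSEM. As the authors deposited them, the values are RSEM expected counts per gene, neither normalized nor filtered. They were rounded and fitted in edgeR 4.0.16 (R 4.3.3) with filterByExpr (minimum count 10, minimum total count 15; 17879 genes kept), TMM scaling and the two-sided quasi-likelihood test without covariates. *p*-values were adjusted by the Benjamini-Hochberg method across all genes tested. The call threshold is an unadjusted *p* under 0.05, the one the study set.

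Members were matched by symbol in the first 1264 rows of the study's table, which is sorted by *P*-value (later rows were not used here) and whose counts equal the rounded deposited ones (7584 of 7584 values). Its columns of the authors' fold changes and *p*-values were not used beyond that membership. The named genes are all members, a fixed list of partners and paralogs, and the 10 other genes of the symbol list with the smallest *p*. The members, the lists and the markers were chosen with earlier results of these data known. Symbols outside the study's rows came from a table of gene names (29201 of 32520 IDs paired), in which many zebrafish genes carry a human-style name. Listed names that did not match a single gene, such as *elna*, *fbn1* and *itga7*, were not analysed here. The fit was tested on simulated data. Alternatives were DESeq2 1.42.0, limma-voom (limma 3.58.1), other scalings and filters, a block for the replicate number, and leaving out libraries in turn. Nothing in the labels says which fish were related, so *p*-values measure the spread between these pools.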

Additional observations from a re-analysis of the deposited data

How the results depend on the processing

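The 21 listed genes were selected on this contrast, and in 20 of them the genotypes did not overlap. Leaving out a library could therefore hardly change a sign. The 21 genes kept the sign of their log2 fold change in all 273 refits, which does not show that the differences are robust. In 5 the value moved by more than 1 SD between pools: with library size only, *col5a2a* was 0.81, *lama1* 1.05, *tnni1b* -0.39 and *lamb2* -0.23, and with the replicate number as a block *col1a1a* was 0.43. None of these 5 refits left out a library, and with so few pools leaving out 1 could hardly move a value that far. The within-library ratios stayed within 1 SD in all 60 refits. Each of the 60 left out 1 library, which with so few pools cannot move a mean log2 ratio by 1 SD. The 60 refits therefore do not show that the ratios are robust. Among the 13 named genes outside the list that passed the unadjusted threshold, each kept its sign and each had a *p* above 0.05 in at least 1 refit. Of 44 that had not passed, 31 changed sign in at least 1. Sorting genes by *p* in the same data brings about such a difference, so it does not show that the calls are robust.

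Over the 169 matrix and integrin genes, the count higher in *mdka* cn105 (26) was 22 to 37 in the refits with all libraries and 18 to 35 with 1 library left out. The share higher exceeded that of all genes in every refit, from 10.5% beside 3.60% without *mdka* cn105 pool 4 to 21.9% beside 11.6% with library size only. These shares include the 19 listed genes, which were selected on this contrast, and no refit was counted without them. The excess is therefore no support from outside that selection. The count lower (6) was 3 with library size only and 3 to 13 with 1 library left out (3 without *mdka* cn105 pool 2, 13 without *mdka*+/+ pool 1). The share lower, below that of all genes at first (3.55% beside 6.42%), was above it without *mdka*+/+ pool 1 (7.47% beside 6.65%) and with the block described below (7.69% beside 5.36%). DESeq2 gave 11 adjusted calls among the 169 genes, beside 445 of all 17879 genes tested, where edgeR gave 0 beside 1. The 11 were not split into listed and other genes, so they too are no support from outside the selection.

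Over all genes, the adjusted count (1) was 445 with DESeq2, 2 with limma-voom, 19 with library size only, 19 without a filter and 0 to 3 with 1 library left out. With library size only, 2081 genes were higher and 501 lower, 80.6% of calls being higher (46.8% with TMM), and the median log2 fold change moved to 0.13. With 1 library left out, 1332 to 2772 genes passed, 656 to 1392 higher and 676 to 1380 lower. The TMM factors were 1.019, 1.068 and 1.062 in *mdka* cn105 and 0.932, 0.974 and 0.953 in *mdka*+/+ libraries, so they differed by genotype. Scaling by library size alone leaves them out, which moves log2 fold changes upward. Why the factors differed was not tested, nor was the cause of the other shifts.

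The genotypes share replicate numbers 2 and 4, and nothing says that equal numbers pair the pools. With that block, the adjusted count over all genes was 4, the matrix and integrin genes had 13 lower calls and a median log2 fold change of 0.02, *POSTN* (ENSDARG00000104267) and *MMP9* had log2 fold changes of 0.17 and -0.06, and 5 of the 13 named calls were lost.

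With 3 pools a genotype, genes with few counts (*lama2*, *COL9A2*, *MATN1*, *itga2.1*) are limited by counting as well as by the spread between pools.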
